A study of Mus musculus with 12 samples.

Results

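Autophagy and lysosome genes form the machinery by which a cell packs cytoplasm into a double membrane and digests it. Here 40 of them are described in mouse CD4+ T cells given a STING agonist. The 40 were taken by name, 20 from autophagy, 17 from the lysosome and the 3 MiT/TFE transcription factors, with no threshold on any measured value. All were found among the 38924 gene identifiers of the count tables, all were among the 13811 genes with enough reads to be tested, and in no library did any of them have fewer than 22 reads.

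The study asked what STING, the adaptor of cytosolic DNA sensing, does in T cells. Naive CD4+ T cells were obtained by sorting from spleens of C57BL/6 wild-type (WT) mice and of STINGgt/gt mice, aged 8 to 12 weeks. STINGgt/gt (goldenticket) mice carry a germline missense mutation that leaves no functional STING, so all of their cells lack it, not the T cells alone, and the labels call them STING KO. All 4 groups went through 2 days of expansion on anti-CD3 and anti-CD28 antibodies and 1 day of rest. The cells then received either solvent (DMSO) or CMA, which is 10-carboxymethyl-9-acridanone, a cell-permeable agonist of mouse STING. This lasted 16 h according to the deposited description and overnight according to the methods. The groups were thus WT with DMSO, WT with CMA, STINGgt/gt with DMSO and STINGgt/gt with CMA, with 3 sequencing libraries each. The study calls the libraries of a group biological replicates, and neither it nor the labels say whether they came from separate animals or from separate cultures, so the errors below measure the spread between these libraries.

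The libraries held 27414450 to 43784910 reads on genes, and 27.77% to 30.28% of all alignments were not unique and were left uncounted. In WT T cells these shares differed by treatment, with 29.56% to 30.28% not unique with DMSO and 27.77% to 27.94% with CMA, and reads outside annotated genes were 4.859% to 5.467% and 6.793% to 7.162%. With DMSO these shares also differed by genotype, as STINGgt/gt libraries had 28.09% to 29.04% not unique and 5.98% to 6.543% outside annotated genes. Their part in the differences between groups was not tested. Between replicates the chi-square against counting noise alone was 2.63 to 29.9 per degree of freedom, largest for replicates 2 and 3 of WT with DMSO. Counting noise leaves out the spread between separate libraries, so no conclusion is drawn from these values. The 7 markers of CD4+ T cells (Cd3d, Cd3e, Cd3g, Cd4, Cd5, Trac and Cd28) were abundant in every library, with a summed level of 2572 to 2610 in WT with DMSO, 2384 to 2393 in WT with CMA and 2675 to 2769 CPM in the STINGgt/gt groups (counts scaled to the library size, here with edgeR's TMM factors). Although the cells had been sorted, markers of other cells were present too and differed between groups. The summed level of 6 B cell markers was 253 to 265 CPM in WT with DMSO, 350 to 378 in WT with CMA, and 114 to 122 in the STINGgt/gt groups. For 8 myeloid markers it was 54.6 to 61.7, 68.9 to 73.8, and 38.1 to 43.6 CPM. Among them Adgre1 and Csf1r were under 0.4 CPM on average in every group. Cd68 had a mean of 10.8 CPM in WT with DMSO, 11.8 in WT with CMA, and 5.69 and 4.95 in STINGgt/gt with DMSO and with CMA. The higher sum with CMA in WT came with Cst3 (a mean of 38.6 CPM with DMSO and 55.7 with CMA), while Lyz2 (3.25 and 1.16), Itgam (3.31 and 1.02) and Fcgr3 (1.03 and 0.538) fell. For 6 markers of CD8 and natural killer cells the summed level was 121 to 137, 59.1 to 63.9, and 56.1 to 63.1 CPM. The lower sum with CMA in WT came with Nkg7 (a mean of 69.6 CPM with DMSO and 20.3 with CMA) and Cd8a (22.8 and 12.9). Cd8b1 was at 26.5 and 23.9 CPM, and Klrd1, Klrb1c and Ncr1 also fell but were at 6.8 CPM or less on average in every group.

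In autophagy, the ULK1 kinase complex with ATG13 starts the process and a lipid kinase complex holding Beclin 1 and ATG14 marks the site where the membrane grows. Conjugation enzymes (ATG7, ATG3 and the ATG12, ATG5 and ATG16L1 unit) then attach the ubiquitin-like proteins of the Atg8 family to that membrane, and cargo receptors such as p62 bind both the cargo and an Atg8 protein. The finished autophagosome fuses with a lysosome, whose membrane proteins, proteases (cathepsins), glycosidases and lipid carriers complete the breakdown. TFEB, TFE3 and MITF are transcription factors that bind E-box letters with the core CACGTG in promoters of many of these genes. STING itself is known to cause LC3 lipidation and to be degraded in lysosomes after it is activated. In the study, STING protein was lost rapidly from macrophages given CMA, and its level in T cells was less affected.

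Promoter sequence is shown for the members on which the results turn. It comes from RefSeq windows on GRCm38.p6 that reach from 250 bases before to 50 bases after an annotated start, and 34 of the 40 members were matched. The first pair belongs to the members with the largest rise and the largest fall with CMA in WT T cells. They cover the 250 bases before the start of Npc2 (chr12:84773113-84773362, minus strand) and of Gabarapl1 (chr6:129532942-129533191, plus strand), printed 5′ to 3′ along the gene, and neither holds CACGTG.

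Npc2: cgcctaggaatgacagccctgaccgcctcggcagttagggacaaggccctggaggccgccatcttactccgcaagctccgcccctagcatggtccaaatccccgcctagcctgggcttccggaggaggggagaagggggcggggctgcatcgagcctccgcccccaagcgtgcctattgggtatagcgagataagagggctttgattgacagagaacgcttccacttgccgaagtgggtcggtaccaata

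Gabarapl1: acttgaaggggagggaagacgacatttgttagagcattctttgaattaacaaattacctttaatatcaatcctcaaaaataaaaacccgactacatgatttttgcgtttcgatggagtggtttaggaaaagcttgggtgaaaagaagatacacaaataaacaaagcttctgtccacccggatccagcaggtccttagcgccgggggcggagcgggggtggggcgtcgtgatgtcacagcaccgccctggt

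CACGTG, which reads the same on both strands, was found in the windows of 12 of the 34 matched members (35.3%), against 8.09% of the 27025 genes with windows of this length. These 27025 include genes with too few reads to be tested. Among tested genes with a window, 1141 held CACGTG and 8573 did not. Of 102 further pathway genes with a window, 25 held it (24.5%). It is shown in capitals, with its neighbours, for the member with most matches (Lamp1, chr8:13159096-13159125 and chr8:13159128-13159157), the lysosomal calcium channel gene Mcoln1 (chr8:3500436-3500465), and the members Gaa (chr11:119267811-119267840), Atg7 (chr6:114670952-114670981), Atg3 (chr16:45158735-45158764) and Ctsa (chr2:164833758-164833787), all on the plus strand. The first 3 stretches belong to genes that rose with CMA in WT T cells and the last 4 to genes that fell.

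Lamp1, first stretch: atatCACGTGgtccagcgccCACGTGatgc

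Lamp1, second stretch: actggCACGTGaccacatCACGTGcggaac

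Mcoln1: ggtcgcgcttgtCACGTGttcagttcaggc

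Gaa: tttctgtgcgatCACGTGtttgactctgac

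Atg7: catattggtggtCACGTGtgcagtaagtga

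Atg3: CACGTGtcctgggagagtcgagtCACGTGa

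Ctsa: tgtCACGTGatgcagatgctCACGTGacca

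The letters GAAA, any 2 bases and GAAA again, a short form of the element bound by interferon-regulatory factors, were searched on both strands as well and do not overlap with CACGTG. They were found in the windows of Ctss and Lamp1 only, 2 of 34 members (5.88%), against 3.99% of all genes with a window. For Ctss the match is in capitals within the 250 bases before the start (chr3:95526536-95526785, plus strand).

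Ctss: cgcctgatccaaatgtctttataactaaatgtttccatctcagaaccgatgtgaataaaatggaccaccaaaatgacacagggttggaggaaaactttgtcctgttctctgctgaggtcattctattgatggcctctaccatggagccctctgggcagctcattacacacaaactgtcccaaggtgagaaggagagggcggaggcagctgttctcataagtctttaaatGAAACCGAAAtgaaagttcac

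With CMA, WT T cells changed most of these genes, in both directions and mostly by less than 2-fold. In its own assays the study found that overnight CMA led to apoptosis, seen as Annexin V binding, in WT but not in STINGgt/gt T cells. The libraries were taken after a treatment of that length, and the part of cell death in the changes below was not tested. Of the 40, 17 rose, 15 fell and 8 did not pass the test, which was edgeR's quasi-likelihood test with a Benjamini-Hochberg adjusted p under 0.05 over all genes. The share called, 32 of 40 (80%), stands beside 70.4% of all tested genes, 33% higher and 37.4% lower. Only Npc2, Optn and Gabarapl1 changed by 2-fold or more, 7.5% of the members against 17% of all genes. The median log2 fold change was 0.03 over the members and −0.04 over all genes, and the median size of the change was 0.37 and 0.39. The libraries with CMA and with DMSO did not overlap for 35 members, all but Ulk2, Wipi1, Wipi2, Mitf and Npc1, against 71.1% of all genes. In STINGgt/gt T cells no member passed the test, against 1.32% of all genes, and the log2 fold changes lay between −0.20 and 0.17. At an unadjusted p under 0.05 there were 5 members (Optn, Tfeb, Tfe3, Gla and Npc2), 12.5% of the 40 and close to the 13% of all genes. DESeq2 called none of the 40 there, against 2.37% of all genes, and limma on the deposited log2 table called 1, Gla, against 1.03%. Libraries with CMA and with DMSO did not overlap for 6 members in this genotype (Becn1, Tfe3, Lamp1, Ctsc, Gla and Npc2), 15% against 23.1% of all genes.

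**Figure D1:**
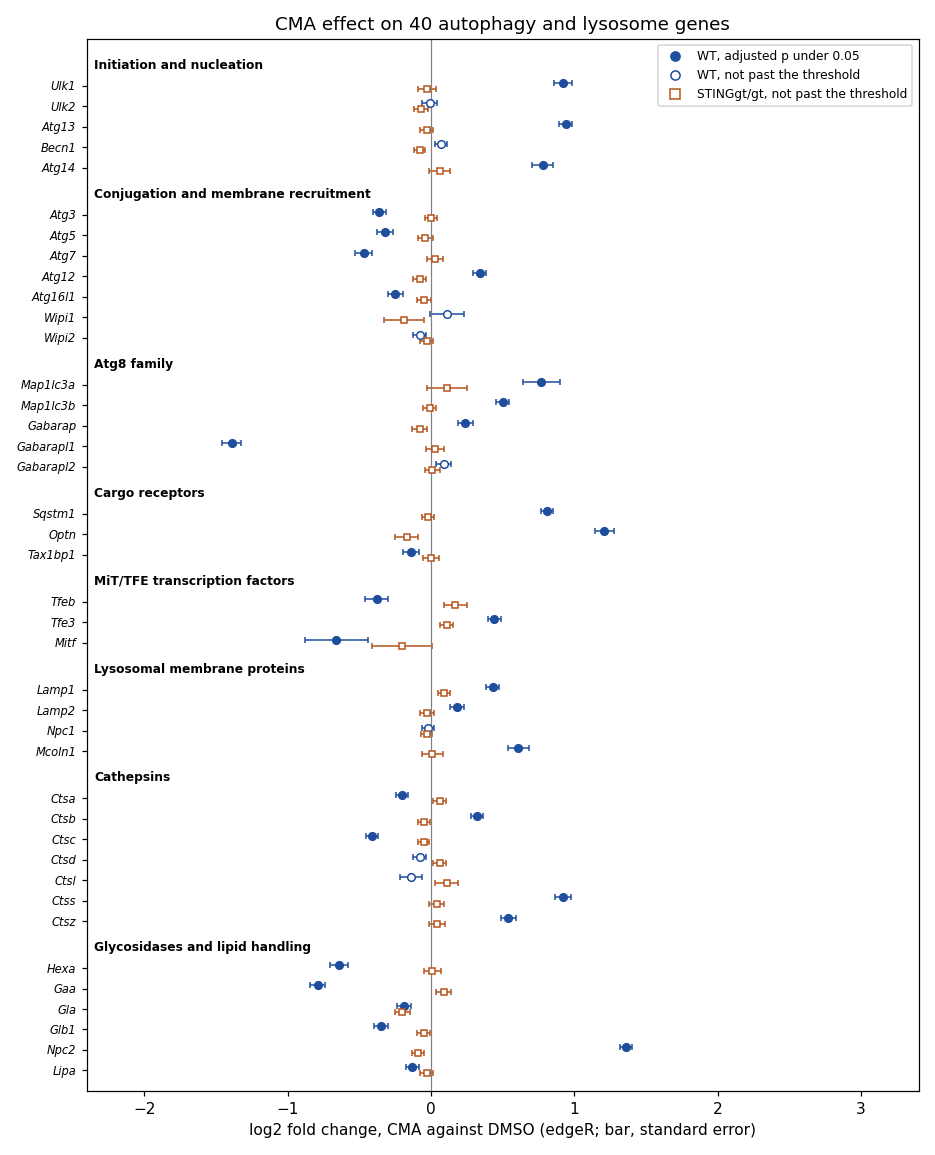
The log2 fold change of CMA against DMSO (horizontal axis) with its standard error is plotted for each of the 40 members, ordered by role, in WT (circles, filled where the adjusted p was under 0.05) and in STINGgt/gt T cells (open squares). The WT values run from −1.39 (Gabarapl1) to 1.36 (Npc2), and those in STINGgt/gt T cells from −0.20 to 0.17.

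Most of the genes that start autophagy rose. Among the 5 members of initiation and nucleation, Atg13, Ulk1 and Atg14 were higher with CMA in WT T cells and Ulk2 and Becn1 did not pass the test. Atg13 (ENSMUSG00000027244, chr2:91674618-91710576), the regulatory subunit of the ULK1 complex, stood at 59.1, 57.8 and 57.5 CPM with DMSO and at 112, 111 and 113 CPM with CMA. Its log2 fold change was 0.94 ± 0.044 (SE, adjusted p = 1.01e-11). STINGgt/gt T cells had it at 60.1, 57.7 and 62.9 CPM with DMSO and 56.6, 59.6 and 61.0 CPM with CMA, so that only the WT libraries with CMA were high. Ulk1 (ENSMUSG00000029512, chr5:110784488-110810097), the kinase that opens the pathway, went from 43.2, 41.4 and 36.9 CPM to 74.1, 77.8 and 76.7 CPM in WT (log2 0.92 ± 0.063, adjusted p = 1.38e-09). The 6 STINGgt/gt libraries lay between 35.1 and 40.4 CPM, without a separation by treatment. A test of the difference in the CMA effect between genotypes passed for Atg13 (log2 difference 0.97, adjusted p = 1.43e-09), Ulk1 (0.94, adjusted p = 1.62e-07) and Atg14 (0.71, adjusted p = 2.24e-05), the last encoding the subunit that directs the lipid kinase to autophagy. Ulk2, the paralogue of Ulk1, had a log2 fold change of −0.01 in WT. Becn1, which encodes the scaffold Beclin 1, had 0.07 in WT and −0.08 in STINGgt/gt T cells, and the difference of 0.15 passed the test (adjusted p = 0.0261). This call was lost in 5 of 18 alternative analyses, with library-size scaling (adjusted p = 0.0663) and no filter (adjusted p = 0.0986) among them.

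**Figure D2:**
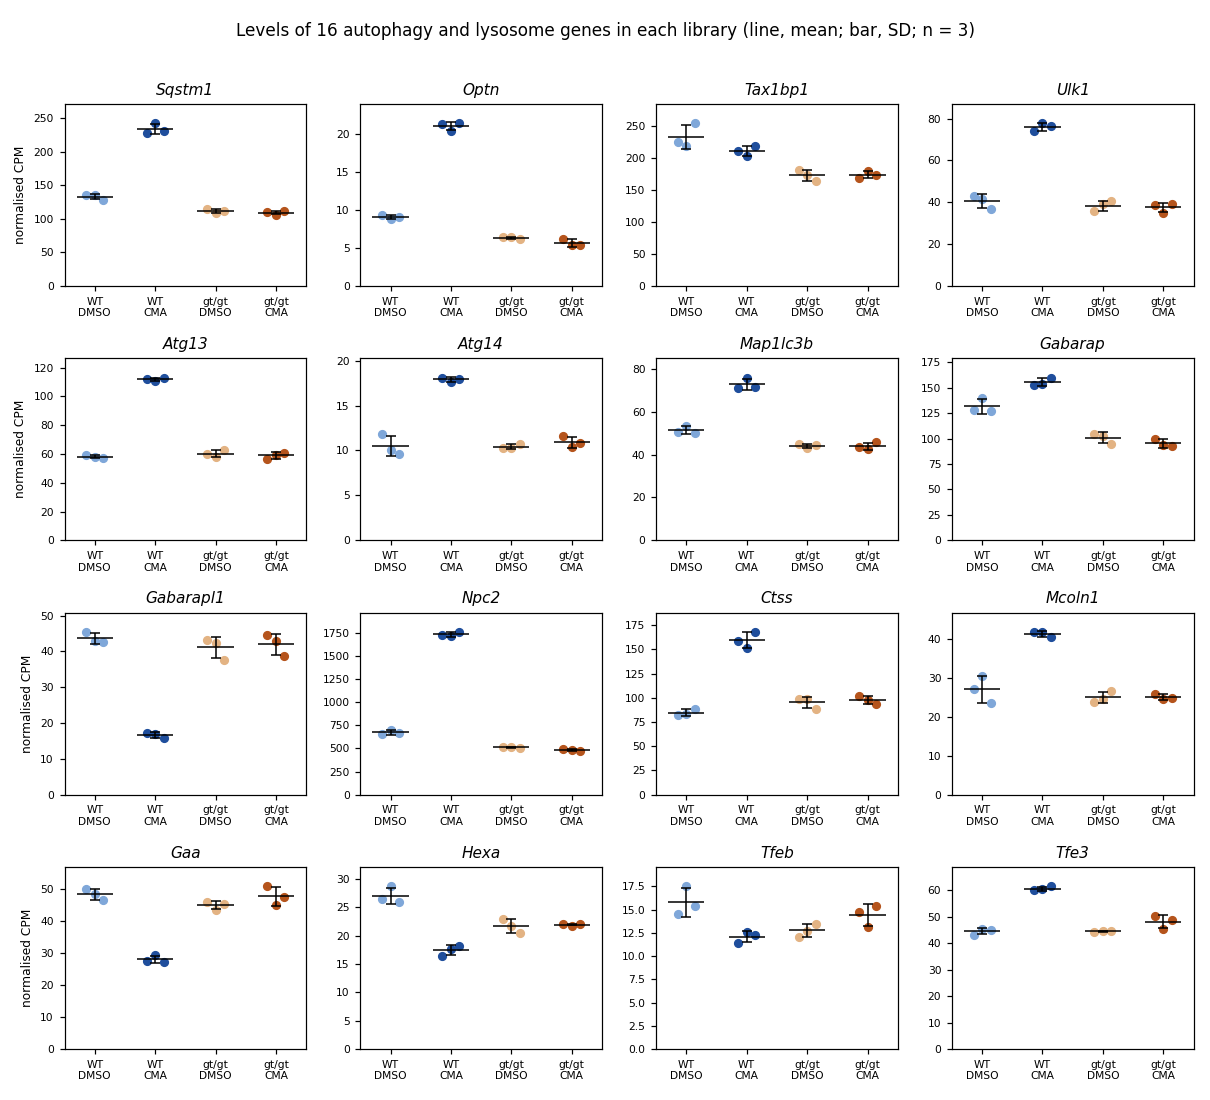
The level of 16 members in each of the 12 libraries is plotted in CPM (vertical axes from 0, points for libraries, line and bar for the mean and SD of 3) by group. For Atg13, Optn and Npc2 the 3 libraries of WT with CMA lie above the other 9, and for Gabarapl1, Gaa and Hexa they lie below.

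Conjugation genes mostly went the other way. Of the 7 members for conjugation and membrane recruitment, Atg7, Atg3, Atg5 and Atg16l1 fell with CMA in WT T cells, Atg12 rose, and the phosphoinositide-binding Wipi1 and Wipi2 did not pass the test. Atg7 (ENSMUSG00000030314, chr6:114643097-114860614), the E1-like activating enzyme of both conjugation systems, stood at 20.2, 21.6 and 19.3 CPM with DMSO and at 14.6, 14.9 and 14.6 CPM with CMA (log2 −0.47 ± 0.060, adjusted p = 2.69e-06). Atg3 (ENSMUSG00000022663, chr16:45158785-45188538), the E2-like enzyme for the Atg8 proteins, stood at 53.5, 53.9 and 56.3 CPM and then at 42.1, 42.8 and 42.9 CPM (log2 −0.36 ± 0.044, adjusted p = 2.05e-06). For both genes every WT library with CMA was lower than each of the other 9 libraries. Over the 6 STINGgt/gt libraries Atg7 ranged from 21.4 to 23.8 CPM and Atg3 from 52.2 to 56.2 CPM. Atg5 and Atg16l1 had log2 fold changes of −0.32 and −0.25 in WT, while Atg12, the ubiquitin-like protein that is joined to ATG5, had 0.34 (adjusted p = 3.88e-06). The difference between genotypes passed the test for each of these 5, from −0.50 for Atg7 to 0.42 for Atg12. For Atg16l1 it was close to the threshold (−0.20, adjusted p = 0.0273), and without replicate 1 of WT with DMSO it did not pass (−0.16, adjusted p = 0.0893).

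The Atg8 family split. Gabarapl1 (ENSMUSG00000030161, chr6:129533200-129542331), which encodes a GABARAP-type Atg8 protein, had the largest fall of all 40 members in WT T cells, from 45.4, 42.9 and 42.5 CPM with DMSO to 17.1, 17.0 and 15.8 CPM with CMA. Its log2 fold change was −1.39 ± 0.067 (adjusted p = 1.76e-11). Without functional STING it stood at 43.2, 42.4 and 37.7 CPM with DMSO and at 44.5, 42.8 and 38.7 CPM with CMA, with overlapping groups, and the effects differed by −1.42 (adjusted p = 1.55e-09).

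The other family members that passed rose. Gabarap (ENSMUSG00000018567, chr11:69991143-69994951) stood at 128, 140 and 127 CPM and then at 153, 154 and 160 CPM in WT (log2 0.24 ± 0.052, adjusted p = 0.000576). Map1lc3b (ENSMUSG00000031812, chr8:121590361-121598760), which encodes LC3B, the usual marker of autophagosomes, went from 50.8, 53.5 and 50.1 CPM to 71.2, 76.0 and 71.5 CPM (log2 0.50 ± 0.046, adjusted p = 5.25e-08). Map1lc3a (ENSMUSG00000027602, chr2:155276297-155278073), which encodes LC3A, was low, at 3.71, 3.82 and 3.73 CPM with DMSO and 6.80, 7.09 and 5.23 CPM with CMA (log2 0.77 ± 0.13, adjusted p = 4.66e-05). For these 3 genes no WT library with CMA overlapped with those with DMSO. Gabarapl2 (ENSMUSG00000031950, chr8:111940703-111953612), encoding the protein also called GATE-16, stood at 28.8, 26.8 and 27.3 CPM with DMSO and 29.0, 29.1 and 30.1 CPM with CMA, which did not pass (log2 0.09, adjusted p = 0.119).

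Across both treatments of STINGgt/gt T cells the ranges were 92.3 to 105 CPM for Gabarap, 42.7 to 45.7 CPM for Map1lc3b, 2.61 to 3.53 CPM for Map1lc3a and 23.9 to 26.5 CPM for Gabarapl2. Their treated and untreated libraries overlapped for all 4. Per kilobase of exon, the sum over the 5 family members was 111 to 119 CPM in WT with DMSO and 119 to 122 CPM with CMA, so the family total moved little while its make-up changed. The shares that follow depend on the exon length used, which joins all annotated exons of a gene. The share of Gabarapl1 in this per-length sum was 17.9% to 19.7% in the WT libraries with DMSO and 6.47% to 7.15% with CMA. That of Gabarap was 60.8% to 63.8% and then 69.3% to 71.4%, and in STINGgt/gt T cells Gabarapl1 kept between 20.9% and 23.3%. Among all 40 members ordered by level per kilobase, Gabarapl1 was at place 10 in WT with DMSO and at place 23 with CMA.

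**Figure D3:**
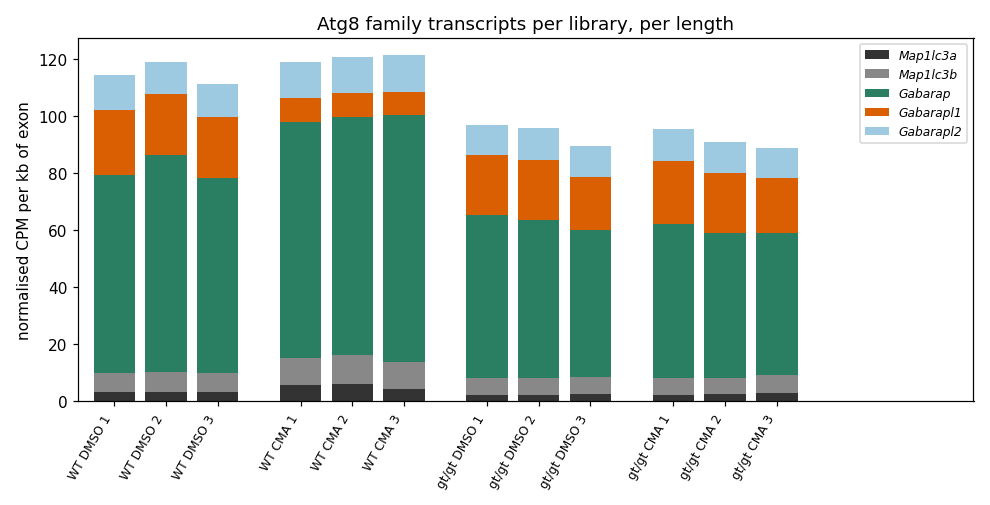
Stacked bars give the level of the 5 Atg8 family genes per kilobase of exon (vertical axis, CPM per kb) in each of the 12 libraries. The Gabarapl1 part shrinks in the 3 WT libraries with CMA, while the height of the bars stays between 111 and 122 in WT and between 89.1 and 96.9 in STINGgt/gt T cells.

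Of the 3 cargo receptors, Sqstm1 and Optn rose and Tax1bp1 was slightly lower. Sqstm1 (ENSMUSG00000015837, chr11:50199366-50210827), which encodes p62, the receptor for ubiquitinated cargo, stood at 135, 136 and 128 CPM in WT with DMSO and at 228, 242 and 230 CPM with CMA (log2 0.81 ± 0.043, adjusted p = 5.49e-11). The STINGgt/gt libraries had 114, 108 and 111 CPM with DMSO and 110, 106 and 111 CPM with CMA. Optn (ENSMUSG00000026672, chr2:5020642-5064051), encoding optineurin, a receptor that the kinase TBK1 phosphorylates, went from 9.36, 8.82 and 9.12 CPM to 21.3, 20.4 and 21.4 CPM in WT, 2.31-fold (log2 1.21 ± 0.068, adjusted p = 1.02e-10). The STINGgt/gt libraries were lower throughout, at 6.44, 6.40 and 6.16 CPM with DMSO and 6.20, 5.36 and 5.38 CPM with CMA. The effects differed between genotypes by 0.83 for Sqstm1 (adjusted p = 7.45e-09) and by 1.38 for Optn (adjusted p = 9.78e-09). Tax1bp1 (ENSMUSG00000004535, chr6:52713729-52766780), another ubiquitin-binding receptor, stood at 225, 220 and 255 CPM with DMSO and 212, 204 and 219 CPM with CMA (log2 −0.14 ± 0.056, adjusted p = 0.0339). That call rested on replicate 3 of WT with DMSO, the highest of the 12, without which the value was −0.06 (adjusted p = 0.252), and it was lost in 11 of 19 alternative analyses.

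The MiT/TFE factors did not move together. Tfe3 (ENSMUSG00000000134, chrX:7762560-7775202) stood at 43.1, 45.3 and 45.1 CPM in WT with DMSO and at 59.9, 60.4 and 61.4 CPM with CMA (log2 0.44 ± 0.045, adjusted p = 1.98e-07). Tfeb (ENSMUSG00000023990, chr17:47737030-47792419) went down, from 14.5, 17.5 and 15.4 CPM to 11.4, 12.6 and 12.3 CPM (log2 −0.38 ± 0.083, adjusted p = 0.000585). In STINGgt/gt T cells Tfe3 was 44.1, 44.5 and 44.6 CPM with DMSO and 50.1, 45.4 and 48.7 CPM with CMA, which did not overlap but did not pass (log2 0.11, adjusted p = 0.284). Tfeb was 12.1, 12.7 and 13.5 CPM and then 14.8, 13.1 and 15.4 CPM there (log2 0.17, adjusted p = 0.374). The genotypes differed in the CMA effect for both, by 0.33 for Tfe3 (adjusted p = 0.000315) and by −0.56 for Tfeb (adjusted p = 0.000583). Mitf (ENSMUSG00000035158, chr6:97807058-98021349) was low, with 22 to 68 reads per library. It stood at 1.27, 1.07 and 1.66 CPM with DMSO and 0.809, 0.679 and 1.10 CPM with CMA in WT, with groups that overlapped (log2 −0.66 ± 0.22, adjusted p = 0.0151). Mitf in STINGgt/gt T cells was 1.24, 1.07 and 1.37 CPM and 0.985, 1.27 and 0.909 CPM. Its WT call was lost without replicate 3 of WT with DMSO (−0.43, adjusted p = 0.128) and without replicate 1 or 2 of WT with CMA (−0.61, adjusted p = 0.0512, and −0.52, adjusted p = 0.0700). These are amounts of mRNA, and the activity of the MiT/TFE factors, which is set mainly by phosphorylation and entry into the nucleus, was not measured.

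Of the 4 lysosomal membrane genes, 3 rose with CMA in WT T cells and Npc1 did not pass. Mcoln1 (ENSMUSG00000004567, chr8:3500457-3515232), which encodes the calcium channel TRPML1, stood at 27.1, 30.7 and 23.6 CPM with DMSO and at 41.9, 41.8 and 40.5 CPM with CMA (log2 0.61 ± 0.073, adjusted p = 1.27e-06). Lamp1 (ENSMUSG00000031447, chr8:13159135-13175338), which encodes a main glycoprotein of the lysosomal membrane, stood at 138, 142 and 151 CPM and then at 193, 192 and 196 CPM (log2 0.43 ± 0.043, adjusted p = 1.67e-07). Neither gene's WT groups overlapped. Among STINGgt/gt libraries Mcoln1 ranged from 23.9 to 26.6 CPM, and Lamp1 was 127, 122 and 118 CPM with DMSO and 131, 131 and 128 CPM with CMA, higher in all 3 but short of the threshold (log2 0.09, adjusted p = 0.42). The difference between genotypes was 0.61 for Mcoln1 (adjusted p = 0.000107), 0.34 for Lamp1 (adjusted p = 0.000153) and 0.20 for Lamp2 (adjusted p = 0.0206), whose own change in WT was 0.18. Npc1, the membrane partner of NPC2 in cholesterol export, had −0.02 in WT and −0.03 in STINGgt/gt T cells.

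The cathepsins were divided. In WT T cells Ctss, Ctsz and Ctsb rose, Ctsc and Ctsa fell, and Ctsd and Ctsl did not pass. Ctss (ENSMUSG00000038642, chr3:95526786-95556403), encoding cathepsin S, the protease that trims the invariant chain of MHC class II, stood at 81.8, 83.1 and 88.5 CPM with DMSO and 159, 152 and 168 CPM with CMA (log2 0.92 ± 0.055, adjusted p = 2.38e-10). The STINGgt/gt values were 98.4, 99.0 and 89.0 CPM and 102, 98.1 and 93.8 CPM, so that only WT libraries with CMA exceeded 102 CPM. Ctsz (ENSMUSG00000016256, chr2:174427493-174439039), encoding the carboxypeptidase cathepsin Z, stood at 144, 150 and 136 CPM and then at 210, 209 and 204 CPM in WT (log2 0.54 ± 0.055, adjusted p = 2.27e-07), and between 103 and 121 CPM in STINGgt/gt T cells. Ctsb, a broadly active cysteine protease, had a log2 fold change of 0.32 in WT. Ctsc, which encodes the dipeptidyl peptidase that activates granzymes, had −0.41 and Ctsa, a carboxypeptidase that also protects other hydrolases, −0.20. The differences between genotypes passed the test for these 5, from −0.36 for Ctsc to 0.88 for Ctss. Ctsd and Ctsl had −0.08 and −0.14 in WT.

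Among the 6 genes for glycosidases and lipid handling a single one rose and 5 fell. Npc2 (ENSMUSG00000021242, chr12:84754560-84773112), which encodes the soluble carrier that hands cholesterol to NPC1, was the most abundant of the 40 per kilobase of exon in every group. It stood at 651, 700.0 and 665 CPM in WT with DMSO and at 1723, 1711 and 1756 CPM with CMA, 2.58-fold (log2 1.36 ± 0.040, adjusted p = 2.87e-14). The STINGgt/gt libraries had 514, 511 and 508 CPM with DMSO and 490.0, 484 and 467 CPM with CMA, lower in all 3 without passing the test (log2 −0.09, adjusted p = 0.354). The effects differed by 1.45 (adjusted p = 3.22e-12), the largest difference of the 40. Gaa (ENSMUSG00000025579, chr11:119267887-119285454), encoding the acid glucosidase that breaks down glycogen, fell from 49.9, 48.3 and 46.6 CPM to 27.6, 29.2 and 27.1 CPM in WT (log2 −0.79 ± 0.054, adjusted p = 1.41e-09). Gaa in STINGgt/gt T cells was 45.8, 43.4 and 45.2 CPM and 50.7, 44.9 and 47.3 CPM. Hexa, the alpha subunit of the hexosaminidase that degrades gangliosides, had −0.64 (adjusted p = 9.26e-08), the beta-galactosidase gene Glb1 −0.35 (adjusted p = 4.82e-06), the alpha-galactosidase gene Gla −0.19 (adjusted p = 0.00327) and the acid lipase gene Lipa −0.13 (adjusted p = 0.0223). The Lipa call was lost in 9 of 19 alternative analyses, with DESeq2 among them (−0.10, adjusted p = 0.109). For Gla the effect in STINGgt/gt T cells was of the same size, −0.20 (adjusted p = 0.0916), from 15.6, 14.7 and 15.3 CPM to 13.3, 12.9 and 13.6 CPM, and its difference between genotypes was 0.01 (adjusted p = 0.876).

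Altogether 29 of the 40 members passed the test of a difference in the CMA effect between genotypes, 18 with a positive and 11 with a negative difference. That is 72.5%, against 58.8% of all genes, of which 27.2% were positive and 31.6% negative. The difference contains the WT effect itself, and how often their directions match was not counted over all genes. Of the 32 members called in WT, 28 also differed between the genotypes in the same direction. The 4 others did not pass the test of the difference, which was −0.15 ± 0.080 (SE) for Tax1bp1, −0.46 ± 0.31 for Mitf, 0.01 ± 0.073 for Gla and −0.09 ± 0.065 for Lipa. Without replicate 2 of WT with DMSO that of Tax1bp1 passed (−0.19, adjusted p = 0.0282). Of the 7 CD4+ T cell markers, Cd3d, Cd3e and Cd3g fell with CMA in WT T cells (Cd3e by most, log2 −0.66, adjusted p = 1.72e-09) and Cd4 rose (0.19, adjusted p = 0.000203). B cell markers moved as well, with 5 of 6 higher, while 5 of 6 markers of CD8 and natural killer cells were lower and the myeloid markers had 1 higher and 3 lower of 7 tested. The part of other cells in the changes of the members was not tested. In bulk RNA a change in the share of a cell type and a change in RNA per cell cannot be told apart.

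With the CACGTG core set against the results, 3 of the 12 members that held it rose with CMA in WT T cells (Atg14, Lamp1 and Mcoln1), 7 fell (Atg3, Atg5, Atg7, Ctsa, Gaa, Gla and Glb1) and Ctsd and Ctsl did not pass. Their median log2 fold change was −0.20. Of the 22 matched members without it, 11 rose, 7 fell and 4 did not pass, with a median of 0.14. Among all tested genes with a window, 28.3% of the 1141 that held CACGTG rose and 44% fell (median −0.08), and of the 8573 without it 34.7% rose and 38.8% fell (median −0.04). The contrast between members with and without the letters rests on few genes and was not tested. Lamp1 had 4 matches, the farthest starting at −61 from its start, and rose, whereas Gaa had 1 and had the largest fall of the 12. These are matches of letters and not of bound sites, and the windows rest on RefSeq starts, which need not be the starts used in T cells.

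**Figure D4:**
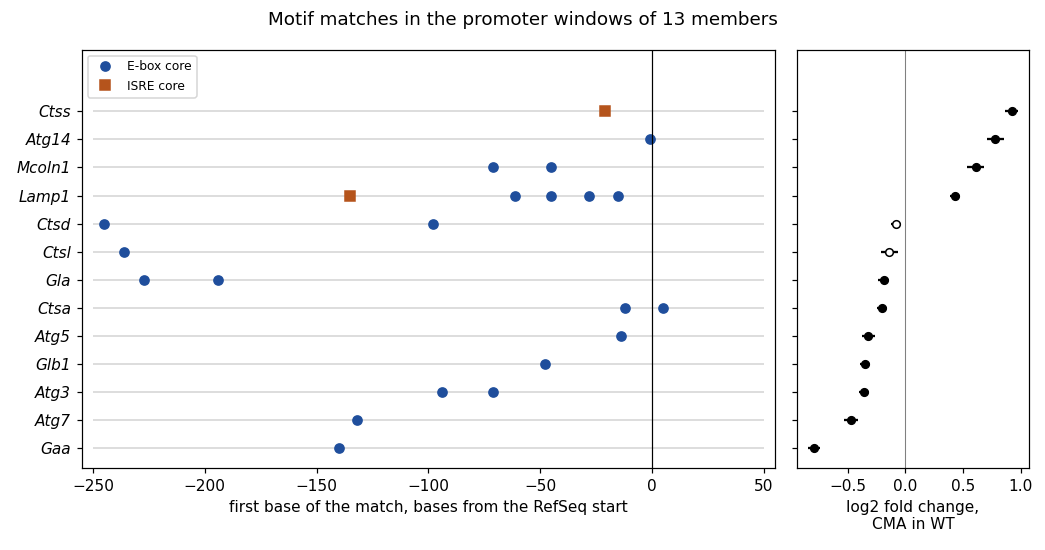
The left panel marks the first base of each CACGTG (E-box core, circles) and of each pair of GAAA set 2 bases apart (ISRE core, squares) in the windows of the 13 members with a match, in bases from the RefSeq start. The right panel gives their log2 fold change with CMA in WT T cells with the standard error (filled where the adjusted p was under 0.05), and members with the E-box core lie between −0.79 and 0.78.

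The genotypes also differed before any CMA was given, and 11 of the 17 lysosomal genes were higher in WT T cells. With DMSO, 19 of the 40 members were higher in WT than in STINGgt/gt T cells and 1, Ctss, was lower. In all 50% differed, against 42.7% of all genes. The share of higher members, 47.5%, stands beside 22.9% of all genes, and that of lower members, 2.5%, beside 19.8%. The median log2 difference was 0.15 over the members and −0.00 over all genes. It was 0.39 over the 17 lysosomal members and 0.08 over the 20 autophagy members, of which 7 were higher and none lower in this edgeR fit (23 of the 40 members had an unadjusted p under 0.05, against 49.9% of all genes). No member reached 2-fold, against 7.28% of all genes.

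The members with the widest gap, singled out after their values were seen, were lysosomal enzymes and a membrane protein. Gla (ENSMUSG00000031266, chrX:134588149-134601125) stood at 28.9, 30.1 and 30.5 CPM in WT and 15.6, 14.7 and 15.3 CPM in STINGgt/gt T cells, 1.96-fold (log2 0.97 ± 0.052, adjusted p = 3.4e-10). Ctsl (ENSMUSG00000021477, chr13:64363214-64370306), encoding cathepsin L, stood at 10.9, 9.89 and 10.3 CPM against 6.10, 5.61 and 5.82 CPM (log2 0.82 ± 0.078, adjusted p = 3.36e-07). Ctsa stood at 87.7, 93.5 and 87.8 CPM against 54.9, 55.8 and 55.2 CPM (log2 0.70 ± 0.044, adjusted p = 2.45e-09). Lamp2, which encodes the membrane protein needed for chaperone-mediated autophagy, stood at 85.7, 85.3 and 97.3 CPM against 54.9, 54.5 and 56.6 CPM (log2 0.69 ± 0.050, adjusted p = 1.26e-08). For these 4 genes every WT library with DMSO was above every STINGgt/gt one. The groups did not overlap for 24 of the 40 members in all (60%), against 47.9% of all genes.

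By role, 5 of 7 cathepsins, 3 of 4 lysosomal membrane genes, 3 of 6 genes for glycosidases and lipid handling, all 3 cargo receptors, 3 of 5 Atg8 genes, 1 of 3 MiT/TFE factors (Tfeb, 0.30) and 1 of 7 genes for conjugation and recruitment (Wipi1, 0.66) were higher in WT. None of the 5 genes for initiation and nucleation passed, and their log2 differences lay between −0.05 and 0.07. Of the 19 members that were higher in WT with DMSO, 10 rose further with CMA in WT, 5 fell and 4 did not pass. Both comparisons use the WT libraries with DMSO, and this split was not counted over all genes. No link between the comparisons is therefore drawn from it. Ctss was lower in WT, at a log2 difference of −0.18 (adjusted p = 0.0166), and this call did not pass without replicate 1 of WT with DMSO, or without replicate 1 or 2 of STINGgt/gt with DMSO (−0.16, adjusted p = 0.0603 to 0.0656). The call for Map1lc3a (0.42, adjusted p = 0.0235) was lost without those same libraries (adjusted p = 0.051 to 0.0767).

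Markers of other cells moved with the genotype in the same libraries. All 6 B cell markers, all 7 myeloid markers that could be tested and 5 of 6 markers of CD8 and natural killer cells were higher in WT with DMSO, with median log2 differences of 1.05, 1.36 and 0.97. The sort for naive CD4+ T cells would remove such cells, and lysosomal genes are expressed by them too. The part of such cells in the genotype difference was not tested. Shares of reads that were not unique or outside annotated genes also differed between these groups, and their part was not tested either.

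**Figure D5:**
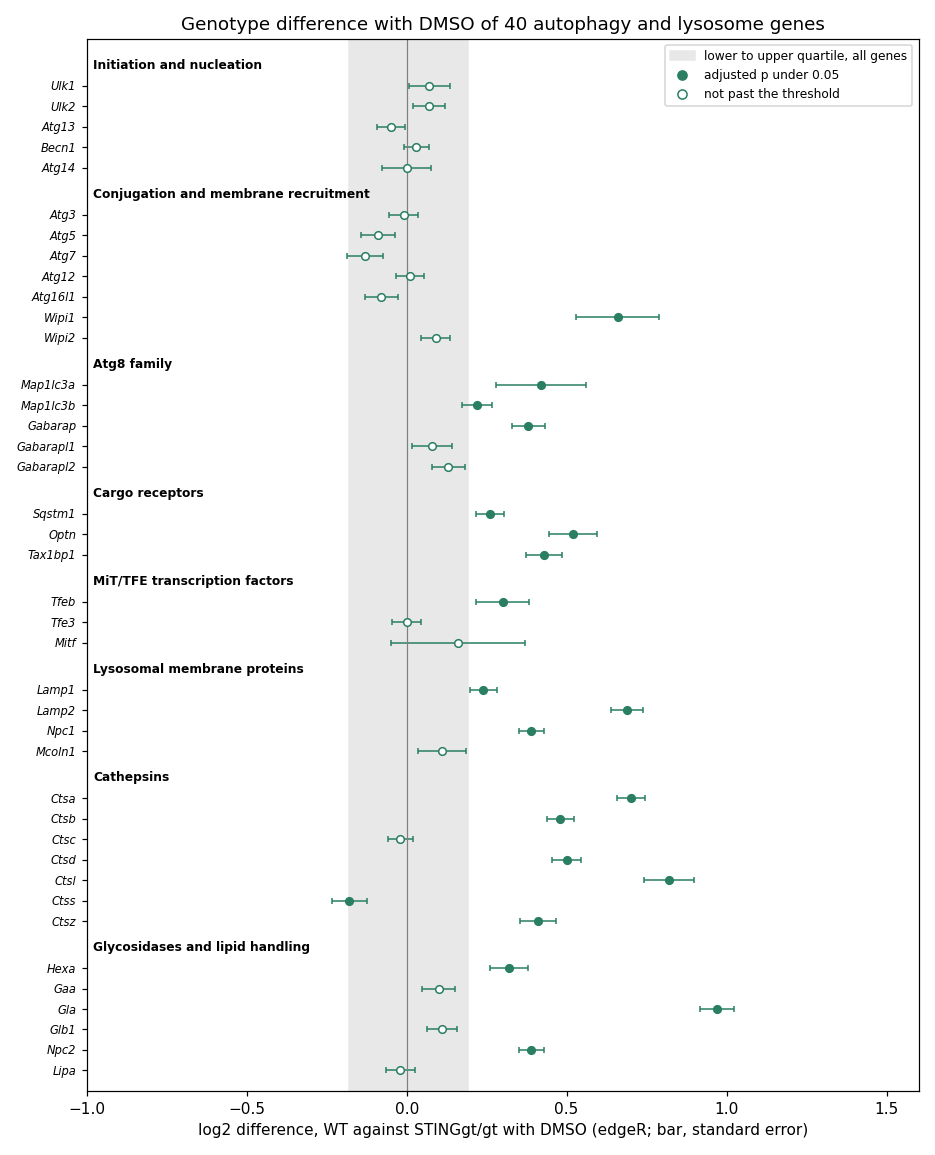
The log2 difference between WT and STINGgt/gt T cells with DMSO (horizontal axis, positive where WT was higher) is plotted with its standard error for each of the 40 members by role, filled where the adjusted p was under 0.05. The grey band runs from the lower to the upper quartile of all tested genes (−0.18 to 0.19), and the 19 members called higher lie to its right, led by Gla at 0.97.

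The neighbouring genes of the pathway, 124 in 7 lists, were read in the same way. In WT T cells 49 rose with CMA (39.5%, against 33% of all genes) and 39 fell (31.5%, against 37.4%). Further autophagy machinery had 12 higher and 5 lower of 25, led by Atg2a (log2 0.77), a lipid transfer protein, and Wdr45 (0.72), of the WIPI family. Of 15 further lysosomal membrane genes 10 rose and 4 fell, led by Cd63 (0.89), a tetraspanin, and Scarb2 (0.74), the receptor that carries glucocerebrosidase to the lysosome. Of 29 further hydrolases 12 rose and 7 fell, with Galc, the galactosylceramidase, at 1.39 (adjusted p = 8.62e-13) and Gusb, the beta-glucuronidase, at −1.11 (adjusted p = 3.08e-11). Galc stood at 18.6, 20.2 and 19.5 CPM in WT with DMSO and 53.5, 50.1 and 49.7 CPM with CMA.

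The vacuolar ATPase, which acidifies the lysosome, had 6 higher and 2 lower of 16, with Atp6v1h at −0.68 and Atp6v0b at 0.40. Mannose 6-phosphate sorting had 2 higher and 5 lower of 9, with Sort1 at −0.78 and Gga2 at −0.62. The genes of mTORC1 signalling, in which the kinase senses nutrients at the lysosome and restrains autophagy, had 4 higher and 12 lower of 22, among them Rragb (−1.10), a Rag GTPase, and Fnip2 (−1.07). This list mixes activators of mTORC1, such as Rheb, with inhibitors, such as Tsc1 and Tsc2, so its counts give no direction of mTORC1 activity. Further cargo receptors had 3 higher and 4 lower of 8, with Calcoco1, a receptor for the endoplasmic reticulum, at 0.79 and Bnip3, a mitochondrial receptor, at −0.58.

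In STINGgt/gt T cells 1 of the 124 passed (0.806%, against 1.32% of all genes), Bnip3, which was 219, 207 and 213 CPM with DMSO and 167, 190 and 188 CPM with CMA (log2 −0.23, adjusted p = 0.0342 in edgeR's test). With DMSO the genotypes differed for 62 of the 124 (50%, against 42.7% of all genes), 51 of them higher in WT (41.1%, against 22.9%). The vacuolar ATPase had 12 higher and none lower of 16, with a median log2 difference of 0.25, and the further hydrolases 15 higher and 1 lower of 29, with a median of 0.20. Further autophagy machinery had 9 higher and 2 lower of 25, further cargo receptors 4 and 1 of 8, and further lysosomal membrane genes 6 and 0 of 15. Mannose 6-phosphate sorting had 2 higher and 2 lower of 9, and mTORC1 signalling 3 higher and 5 lower of 22, with a median of −0.01.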

How the data were processed

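RNA sequencing covered 12 libraries of CD4+ T cells, 3 per group. The submitters' processing notes name cutadapt 1.3, STAR 2.4.0f1, HTSeq 0.6.1, RSEM 1.2.16 and GRCm38, and libraries came from a stranded mRNA kit. Per Ensembl gene, the authors deposited raw read counts and a log2 table of 11921 genes, which over the 11857 genes without a 0 equals the log2 of the count plus 0.5 with 1 offset per library. The strand setting of the counting is not given in the sources used here. Exons of 16 members overlap with another gene, 14 of them on the opposite strand, and reads shared there may be left out or counted for the wrong gene.

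The counts were tested with edgeR 4.0.16 in R 4.3.3 (filterByExpr by group, TMM scaling, glmQLFit and glmQLFTest, 4 groups in 1 model without a block), with Benjamini-Hochberg adjustment over 13811 genes. The standard error is the log2 fold change divided by the square root of F. Levels per kilobase used the joined length of all exons of a gene in GENCODE M21 (7517 bases for Map1lc3b and 1844 for Gabarap). This can exceed the length of the transcripts present, so shares and places between genes depend on it. Tally lines that name no gene were left out, and alignments that were not unique were 27.77% to 30.28%. The libraries were not treated as paired by replicate number. Alternatives were library-size scaling, DESeq2 1.42.0, limma 3.58.1 on the deposited log2 table, fitting the 2 groups alone, a minimum of 10 counts per library, no filter, a replicate block and leaving out each library. Precision is limited by 3 libraries per group. Members and lists were chosen with earlier results of these data known. Within each role the 2 members with the largest change in WT, all Atg8, receptor and MiT/TFE genes, and any member called in STINGgt/gt are given per library, and of each pathway list the 2 with the largest change among those called.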

Additional observations from a re-analysis of the deposited data

Results flagged for a closer look

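The CMA effect in WT T cells minus that in STINGgt/gt T cells passed edgeR's interaction test for 29 members. Among genes for initiation the log2 difference was 0.94 for Ulk1, 0.97 for Atg13, 0.71 for Atg14 and 0.15 for Becn1. Among conjugation genes it was −0.35 for Atg3, −0.28 for Atg5, −0.50 for Atg7, −0.20 for Atg16l1 and 0.42 for Atg12. In the Atg8 family it was 0.66 for Map1lc3a, 0.51 for Map1lc3b, 0.32 for Gabarap and −1.42 for Gabarapl1. The receptors gave 0.83 for Sqstm1 and 1.38 for Optn, and the transcription factors −0.56 for Tfeb and 0.33 for Tfe3. Among lysosomal membrane genes it was 0.34 for Lamp1, 0.20 for Lamp2 and 0.61 for Mcoln1. The cathepsins gave −0.26 for Ctsa, 0.37 for Ctsb, −0.36 for Ctsc, 0.88 for Ctss and 0.50 for Ctsz. The remaining enzymes and carriers gave −0.65 for Hexa, −0.87 for Gaa, −0.30 for Glb1 and 1.45 for Npc2.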

How the results depend on the processing

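The counts of members called kept within 1.5 times of the reported ones in all alternatives apart from the 2 smallest. Members lower in STINGgt/gt T cells with CMA numbered 1 with limma on the deposited log2 table (Gla, −0.20, adjusted p = 0.0449). Members lower in WT than in STINGgt/gt T cells with DMSO numbered 2 with library-size scaling, with limma and with at least 10 counts in every library, where Atg7 joined Ctss. With 1 library left out in turn, the members higher and lower with CMA numbered 17 to 17 and 12 to 15 in WT, and 0 to 0 and 0 to 1 in STINGgt/gt T cells, the 1 being Gla without replicate 3 of WT with DMSO (adjusted p = 0.0494). Those with a positive and a negative difference of the effect numbered 17 to 19 and 10 to 13, and those higher and lower in WT with DMSO 18 to 21 and 0 to 2. The direction changed for 3 members that were not called in WT. Ulk2 had 0.02 with DESeq2, 0.03 with limma, 0.00 with no filter, 0.03 with at least 10 counts and 0.02 with only the 2 groups compared, and −0.05 to 0.01 without 1 library, with 0.01 without replicate 1 or 3 of WT with DMSO and 0.00 without replicate 3 of WT with CMA. Npc1 had 0.01 with DESeq2, 0.02 with limma and with at least 10 counts, 0.01 with the 2 groups and −0.04 to 0.00 without 1 library. Wipi1 had −0.01 to 0.25 without 1 library, the lowest without replicate 3 of WT with DMSO. The cause was not tested. The call for Becn1 in the difference between genotypes was lost in 5 of 18 alternatives and that for Atg16l1 in 10.

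Within a replicate number, the sample names of the DMSO and CMA libraries mostly share a first digit, whose meaning is not stated in the sources used here. The first digits differ for replicate 2 of STINGgt/gt, which the replicate block joined all the same. Deviations of libraries with the same replicate number had small positive correlations (0.00195 to 0.132), and the libraries were not treated as paired. Such values cannot tell whether libraries shared an animal or a culture. With the replicate block the members higher and lower numbered 17 and 15 in WT and 19 and 1 between genotypes with DMSO, and no call of a member changed. Depth limited Mitf most, with 22 to 68 reads per library.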
